A study of Mus musculus with 6 samples.

Results

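The SMAD genes and the genes that restrain SMAD signaling were read in regulatory T (Treg) cells differentiated in culture with or without sorafenib (Sora), a multikinase inhibitor used against liver cancer. The 10 genes were taken by symbol from a table of 22939 genes, and all 10 were listed and passed the filter on low counts. They are the receptor-activated Smad2 and Smad3, their shared partner Smad4, the inhibitory Smad6 and Smad7, the nuclear corepressors Ski, Skil and Tgif1, and the ubiquitin ligases Smurf1 and Smurf2.

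Naive CD4+ T cells came from the spleen and lymph nodes of Foxp3-GFP knock-in mice on the C57BL/6J background, in which GFP sits in the Foxp3 locus. In both groups they received anti-CD3 and anti-CD28 antibodies fixed to the plate, TGF-β1, and antibodies that block IFN-γ and IL4, and GFP-positive cells were sorted for RNA-seq. Sora-Treg cells (3 libraries) had Sora in the medium from the start of culture and ctrl-Treg cells (3 libraries) did not. The age of these mice, the Sora concentration and the culture time of the sequenced cells are not given in the sources used here. All cells were thus exposed to TGF-β1, and they are Treg cells induced in culture, not Treg cells from the thymus or a tumor.

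TGF-β and activin receptors phosphorylate Smad2 and Smad3, which join Smad4, enter the nucleus and switch on target genes. In T cells this route induces Foxp3, the transcription factor that defines Treg cells. It is held in check by several proteins. Smad7 and Smad6 block receptors, and Ski, Skil (also called SnoN) and Tgif1 bring corepressors to SMAD complexes. The Smurfs mark SMADs and receptors for degradation. Because the activity of SMAD proteins is set by phosphorylation and location, RNA levels of these genes do not measure it.

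Total counts ranged from 30727686 to 37717324 per library, and 3 counts, the limit that a count of 0 would allow, corresponded to between 0.0795 and 0.0976 CPM (counts scaled to a library of fixed size). This limit covers counting error only. It was scaled by library totals alone, whereas the CPM values below also used TMM scaling factors, which ran from 0.959 to 1.04. The 95% intervals of fold changes given below come from the edgeR fit and include the spread between libraries. The libraries carried the defining genes of Treg cells, with Foxp3 at 258 ± 8.98 CPM (mean ± SD, n = 3) in controls and 272 ± 4.74 CPM under Sora, and Cd4 at 679 ± 2.07 and 708 ± 17.5 CPM. Not all such genes were level between the groups. In the same order, Il2ra was at 1933 ± 32.1 and 3793 ± 54.2 CPM and Ctla4 at 383 ± 12.4 and 1107 ± 28.4 CPM. Ikzf2 was at 147 ± 2.31 and 149 ± 8.12 CPM. The summed level of 2 CD8 T-cell genes was between 12.6 and 15.1 CPM in all libraries. Of these, Cd8a was lower under Sora (log2 fold change -0.71) and Cd8b1 was not called (0.04). The natural killer and erythroid genes had at most 1 and 4 counts. The labels number the replicates and do not say whether they came from separate cultures or animals, so p-values measure the spread between these libraries only.

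Of the 10 genes, 4 were lower and 5 were higher in Sora-Treg cells at an edgeR adjusted p under 0.05 (Benjamini-Hochberg, BH), and Smad3 did not pass. Among all 13463 genes tested, 59.6% passed, 29.7% higher and 29.9% lower, so passing the test was common in these data. With libraries scaled by their totals in place of TMM, the split was 2862 higher and 5614 lower over all genes, and 1 higher and 4 lower among the 10. The genes that fell were Smad6, Tgif1, Ski and Smad2, and those called higher were Smurf1, Smurf2, Smad4, Smad7 and Skil. Smad6 was the single one past 2-fold, the limit the study set for a differentially expressed gene (DEG). It passed the count filter through the ctrl-Treg libraries only, so its call is given as a description. Of all genes tested 11.3% were DEGs, and 4.97% of all genes tested were DEGs that were lower. In sorted cells measured as a whole, less RNA per cell and fewer cells of a kind cannot be told apart.

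**Figure D1:**
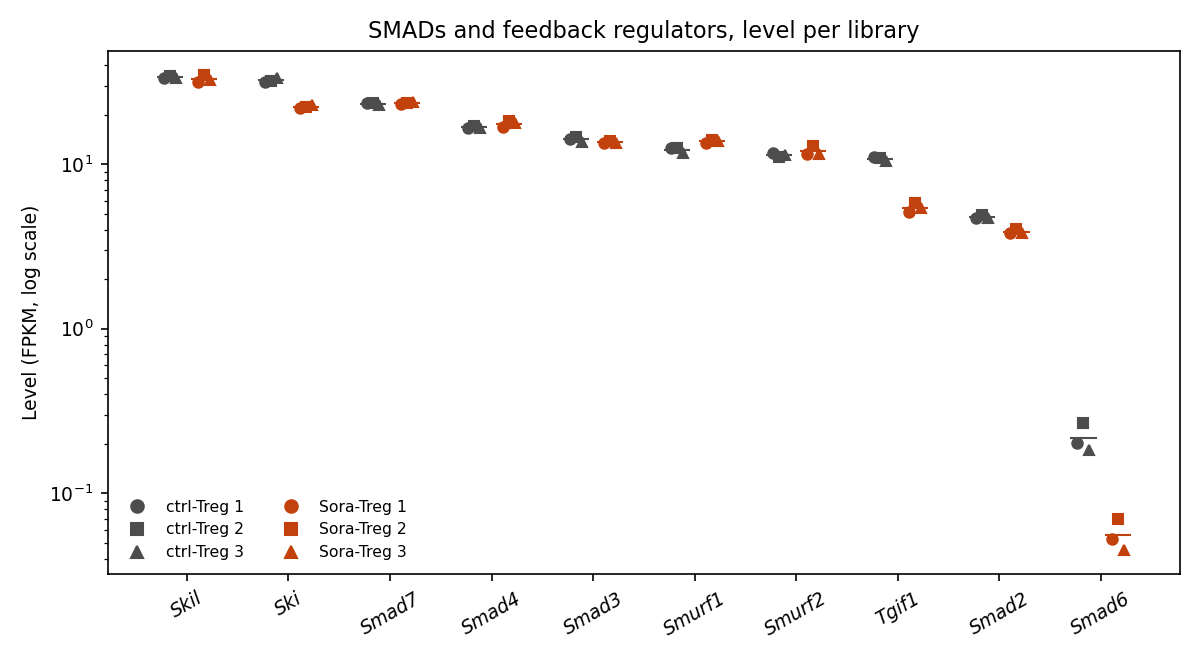
Level of each gene in FPKM (fragments scaled for gene length and library size, log axis) in each of the 6 libraries, ctrl-Treg in grey and Sora-Treg in orange, with a marker shape per replicate number and a line at each group mean. Tgif1, Ski, Smad2 and Smad6 sit lower in all 3 Sora-Treg libraries, and Smad6 lies far under the other 9 genes.

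Compared per length of gene, Skil and Ski were the most abundant of the 10 in ctrl-Treg cells, at 33.8 ± 0.547 and 32.5 ± 0.984 FPKM (SD, n = 3), and their ranges over libraries overlapped. Smad7 followed at 23.3 ± 0.350, Smad4 at 16.8 ± 0.262 and Smad3 at 14.2 ± 0.548 FPKM, each apart from its neighbours. Smurf1 at 12.3 ± 0.525 and Smurf2 at 11.4 ± 0.325 FPKM overlapped, and Tgif1 at 10.8 ± 0.287 and Smad2 at 4.79 ± 0.0987 FPKM came next. Smad6 was last at 0.218 ± 0.0427 FPKM. The low rank of Smad2 rests on its assigned length of 14167 bases, against 5529 for Smad3 and 4890 for Tgif1. In CPM, which ignores length, ctrl-Treg means were 65.2 for Smad2, 75.3 for Smad3 and 50.7 for Tgif1. In Sora-Treg cells Ski, at 22.4 ± 0.576 FPKM, ranked under Smad7 at 23.5 ± 0.359 FPKM, with ranges that did not overlap. This order also rests on the assigned lengths, 5465 bases for Ski and 4442 for Smad7. In CPM the Sora-Treg mean of Ski, 127, stayed above that of Smad7, 109. Smurf1 and Smad3 overlapped at 13.8 ± 0.251 and 13.6 ± 0.216 FPKM in Sora-Treg cells.

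Among the corepressors, Tgif1 had the clearest fall. Tgif1, a homeodomain protein that recruits histone deacetylases to Smad2 and Smad3, stood at 51.5, 51.4 and 49.2 CPM without Sora and at 26.1, 29.4 and 27.5 CPM with it. The groups were far apart, with the lowest control above the highest Sora-Treg value. Tgif1 thus had a log2 fold change of -0.88 ± 0.05 (SE, BH-adjusted p = 2.69e-12, edgeR), so 54.5% of the control level remained, and 6.62% of all genes tested had a lower fold change. Scaled by library totals instead, Tgif1 had a value of -0.99, still short of the 2-fold limit.

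Ski, which displaces coactivators from SMAD complexes, was at 166, 169 and 177 CPM in ctrl-Treg and at 125, 126 and 131 CPM in Sora-Treg cells. Again all 3 control values lay above all 3 Sora-Treg values. This was a log2 fold change of -0.42 ± 0.03 (SE, BH-adjusted p = 3.55e-10, edgeR), which left 74.6% of the control level. Its paralog Skil was at 230, 237 and 229 CPM in ctrl-Treg and 235, 262 and 241 CPM in Sora-Treg cells, and the ranges overlapped.

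Skil was called higher by a small margin, with a log2 fold change of 0.08 ± 0.03 (SE, BH-adjusted p = 0.0428, edgeR). This call was lost without control replicate 1 (0.0798), without control replicate 3 (0.0749) or without sorafenib replicate 2 (0.0397), and the sign turned to -0.0314 with libraries scaled by their totals. Scaling by totals moved the median of all genes by -0.12 on the log2 scale, so changes under about that size have no fixed sign in these data. Skil therefore showed no direction that held.

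Promoter windows of RefSeq (GRCm38.p6) were read for 6 of the 10 genes: Smad3, Smad6, Ski, Smurf1, Smurf2 and Tgif1. No window was found for Skil. Smad2, Smad4 and Smad7 were left out of the scan, so nothing is said here of matches in their promoters. The bases before the RefSeq start of Tgif1, Ski and Smad6, the genes with the largest falls among these 6, and of Smurf1, the rise that held under every alternative run, are printed here 5′ to 3′. Capitals mark matches on either strand to the SMAD-binding palindrome GTCTAGAC, to the short SMAD box CAGAC, or to the AP-1 site TGANTCA, and no match of one overlapped another. For Tgif1 the first of 5 annotated starts is shown, and the Smad6 stretch runs past the start to the last base of its match.
Tgif1, chr17:70853533-70853782, minus strand: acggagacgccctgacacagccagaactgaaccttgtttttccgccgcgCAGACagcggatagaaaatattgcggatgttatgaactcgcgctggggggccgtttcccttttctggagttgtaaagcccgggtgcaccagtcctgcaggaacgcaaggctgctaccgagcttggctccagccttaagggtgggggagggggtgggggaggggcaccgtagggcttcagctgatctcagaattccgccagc
Ski, chr4:155222536-155222785, minus strand: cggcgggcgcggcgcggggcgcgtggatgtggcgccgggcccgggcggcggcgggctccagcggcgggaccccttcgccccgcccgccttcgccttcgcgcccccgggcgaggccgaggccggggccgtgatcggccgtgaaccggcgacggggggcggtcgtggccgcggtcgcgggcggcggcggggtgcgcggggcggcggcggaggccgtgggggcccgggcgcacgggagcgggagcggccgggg
Smad6, chr9:64022056-64022309, minus strand: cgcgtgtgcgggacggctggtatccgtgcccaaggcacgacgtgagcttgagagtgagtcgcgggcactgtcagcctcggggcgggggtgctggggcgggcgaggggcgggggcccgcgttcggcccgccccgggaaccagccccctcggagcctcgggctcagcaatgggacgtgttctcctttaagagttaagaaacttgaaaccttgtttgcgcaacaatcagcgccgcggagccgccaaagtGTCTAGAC
Smurf1, chr5:144965831-144966080, minus strand: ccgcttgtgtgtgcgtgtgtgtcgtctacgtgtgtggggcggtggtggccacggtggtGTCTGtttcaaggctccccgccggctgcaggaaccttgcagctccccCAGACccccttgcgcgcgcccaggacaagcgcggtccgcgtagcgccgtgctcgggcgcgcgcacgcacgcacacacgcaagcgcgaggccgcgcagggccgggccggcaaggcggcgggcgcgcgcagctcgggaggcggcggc

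The Smad6 window held the full palindrome across its annotated start, from position -4 to 4, and 0.213% of the 32851 promoter windows scanned held one. The Tgif1 window shown had a single CAGAC box, at -201 to -197, and the Smurf1 window had 2 (GTCTG is the same box on the other strand). This short box is common, found in 49.6% of all windows, so its presence sets no gene apart. None of the 10 windows of the 6 genes held TGANTCA, which 7.81% of all windows did. The Ski window was 85.3% G or C, where the median over all windows was 52.7%. These are matches of letters, and no binding was measured.

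Both inhibitory SMADs were read next, and they differed in level and in change. Smad6, known best as an inhibitor of the bone morphogenetic protein (BMP) branch, had 23, 28 and 17 counts in ctrl-Treg and 5, 7 and 5 counts in Sora-Treg libraries. These are 0.584, 0.769 and 0.532 CPM against 0.165, 0.219 and 0.140 CPM, with no overlap. The log2 fold change was -1.83 ± 0.48 (SE, 95% interval -2.82 to -0.843, BH-adjusted p = 0.00212, edgeR), and the size of this fall is imprecise at such counts. With every gene that had a count in any library tested, the log2 fold change was -1.85 (BH-adjusted p = 0.00288, edgeR).

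Markers of B cells moved with Smad6. Of 4 B-cell genes 3 were tested and all 3 were lower in Sora-Treg cells, and their summed level was 1.53 to 2.39 CPM in ctrl-Treg and 0.251 to 0.365 CPM in Sora-Treg libraries. Of 7 myeloid genes 4 were lower and 1 higher, with a summed level of 71.2 to 143 CPM in ctrl-Treg and 111 to 133 CPM in Sora-Treg libraries. Cst3, the myeloid gene that was higher (48.0 ± 2.38 against 90.8 ± 1.15 CPM, mean ± SD, n = 3), made up most of the Sora-Treg sums, while Lyz2 had 36.0 ± 20.2 and 10.5 ± 9.28 CPM and Adgre1 16.7 ± 11.5 and 5.17 ± 1.64 CPM. The 4 lower myeloid genes, Lyz2, Csf1r, Itgam and Adgre1, had ranges that overlapped between the groups. In control replicate 3 Lyz2 was at 12.6 CPM, against 5.63, 21.2 and 4.66 CPM in Sora-Treg libraries. Adgre1 was at 3.38 CPM there, against 4.35, 7.05 and 4.10 CPM. The part of B cells and myeloid cells in the fall of Smad6 was not tested. Without control replicates 1 and 2, in which most myeloid genes were highest, Smad6 had a log2 fold change of -1.59 and an edgeR adjusted p of 0.135 with a single control library left, which the fit assumes to vary like the Sora-Treg libraries. This alternative was chosen after seeing the data.

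Smad7, which is induced by TGF-β and blocks its type I receptor, was abundant. Its level was 100.2, 100.3 and 97.9 CPM in ctrl-Treg and 107, 108 and 111 CPM in Sora-Treg cells. The log2 fold change was 0.13 ± 0.04 (SE, BH-adjusted p = 0.00332, edgeR), within the reach of the scaling shift. With libraries scaled by their totals it was 0.0128 and did not pass, and on FPKM the ranges of the groups overlapped. Smad7 lies over the long noncoding gene Gm41776, whose highest count was 13, and Smurf1 over Gm33821, whose highest count was 1.

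The signal-carrying SMADs changed little. Smad2 was at 64.0, 66.9 and 64.6 CPM in ctrl-Treg and at 56.4, 59.3 and 56.2 CPM in Sora-Treg cells, so all control values were higher. Its log2 fold change was -0.19 ± 0.04 (SE, BH-adjusted p = 6.64e-04, edgeR), which left 87.9% of the control level, and it stayed between -0.30 and -0.16 and past the threshold under all 17 alternatives. Smad3 was at 75.3, 78.2 and 72.3 CPM in ctrl-Treg and at 77.0, 79.6 and 77.6 CPM in Sora-Treg cells.

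The ranges of Smad3 overlapped, and its log2 fold change of 0.05 ± 0.04 did not pass (SE, BH-adjusted p = 0.291, edgeR). The 95% interval of the difference ran from -0.0331 to 0.135, so changes beyond those bounds lie outside it under this scaling. Smad4, the common partner, was at 122, 126 and 122 CPM in ctrl-Treg and at 134, 146 and 141 CPM in Sora-Treg cells. It was called higher, with a log2 fold change of 0.19 ± 0.04 (SE, BH-adjusted p = 1.28e-04, edgeR), and had 0.0708 and no call with libraries scaled by their totals.

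The Smurf ligases, HECT-type enzymes that bind SMADs, were both called higher. Smurf1 was at 65.6, 65.6 and 61.0 CPM in ctrl-Treg and at 76.3, 79.4 and 78.4 CPM in Sora-Treg cells, without overlap. Its log2 fold change was 0.28 ± 0.04 (SE, BH-adjusted p = 3.91e-06, edgeR). With libraries scaled by totals it was 0.17, and the rise passed in each of the 17 alternatives. Smurf2 was at 61.4, 58.4 and 59.5 CPM in ctrl-Treg and at 65.5, 73.5 and 65.1 CPM in Sora-Treg cells.

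For Smurf2 the groups lay apart by a narrower gap. Its log2 fold change of 0.19 ± 0.05 (SE, BH-adjusted p = 0.00184, edgeR) became 0.0711, with no call, on library totals. Over all 10 genes, the groups did not overlap on TMM-scaled CPM for 8, where 63.7% of all tested genes did not overlap. On FPKM, which is scaled by library totals, they did not overlap for 5, namely Smad2, Smad6, Ski, Tgif1 and Smurf1, where 66.1% of all tested genes did not.

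**Figure D2:**
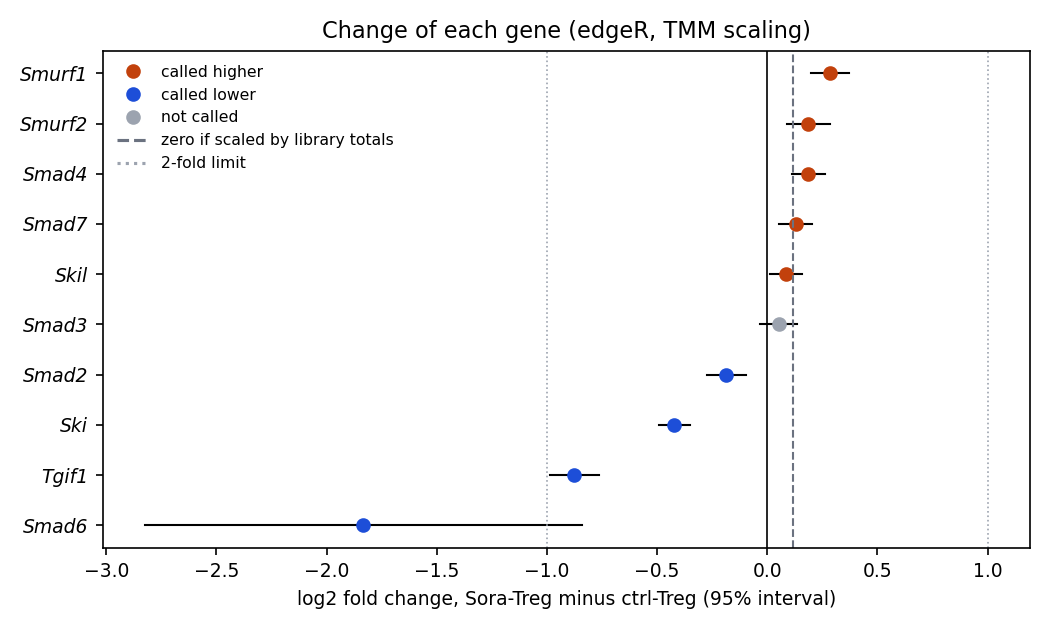
The log2 fold change of each gene (x axis, Sora-Treg minus ctrl-Treg, edgeR with TMM scaling) with its 95% interval, coloured by call. The dashed line marks where 0 would lie with libraries scaled by their totals: Smad3, Skil, Smad7, Smad4 and Smurf2 have intervals that cross it, while Smad2, Ski, Tgif1 and Smad6 lie to its left and Smurf1 to its right.

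**Figure D3:**
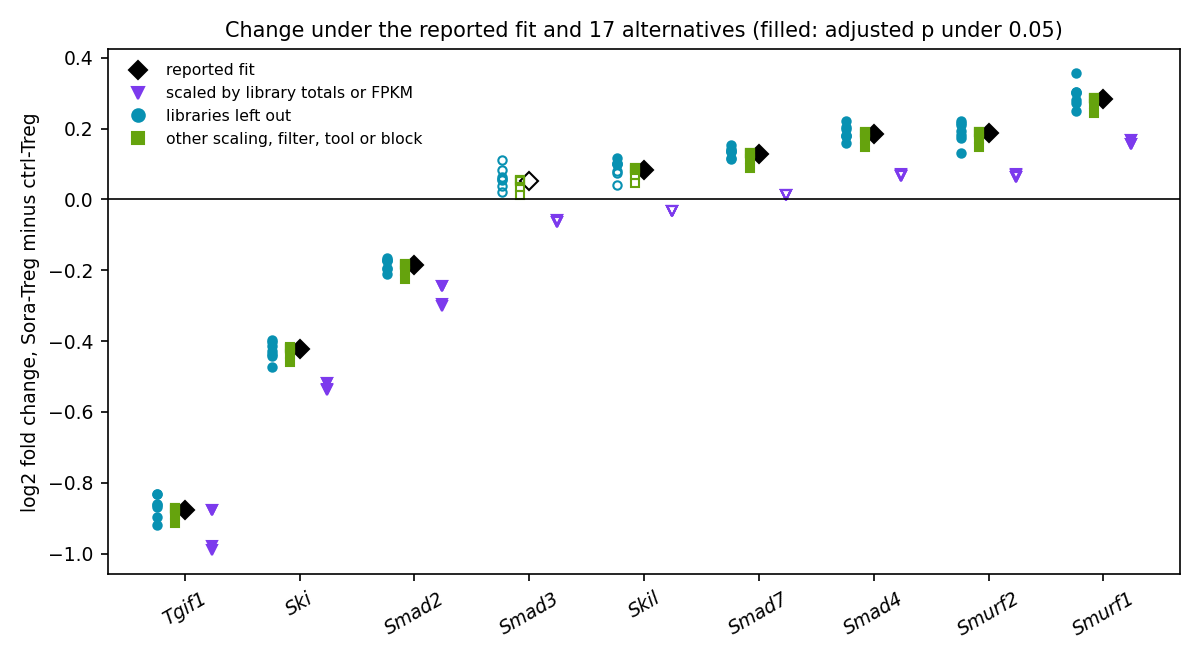
The log2 fold change of 9 genes (y axis) under the reported fit (diamonds) and under 17 alternatives, filled where the adjusted p was under 0.05. Tgif1, Ski, Smad2 and Smurf1 keep their side and their call throughout, Smad3 and Skil cross 0 on library totals or FPKM, and Smad6, whose values span a wider range, is left out.

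A ratio of 2 genes within a library does not depend on how libraries are scaled, so 4 pairs of paralogs were compared in this way. The size of a ratio rests on the length that FPKM assigns to each gene, but its change between groups does not. With 3 libraries against 3 an exact two-sided permutation test cannot go below 0.1. The ratio of Ski to Skil was 0.948, 0.932 and 1.01 in ctrl-Treg and 0.692, 0.631 and 0.712 in Sora-Treg cells. The corepressor pair was thus near parity in control cells and tilted to Skil in all 3 Sora-Treg libraries, a difference of -0.51 in mean log2 ratio (exact permutation p = 0.1).

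Smad2 to Smad3 was 0.332, 0.334 and 0.349 in ctrl-Treg and 0.286, 0.291 and 0.283 in Sora-Treg cells. Every Sora-Treg library had less Smad2 for its Smad3 than every control library, by -0.24 in mean log2 ratio (exact permutation p = 0.1). Smad6 was 0.00861, 0.0113 and 0.00804 of Smad7 in ctrl-Treg and 0.00227, 0.00299 and 0.00188 of it in Sora-Treg cells, a difference of -1.98 (exact permutation p = 0.1) that rests on the few counts of Smad6. Smurf1 to Smurf2 was 1.07, 1.13 and 1.03 against 1.17, 1.08 and 1.21, ranges that overlapped (difference 0.0996, exact permutation p = 0.2).

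Of the FPKM of the 5 SMADs together, Smad7 made up 39.3% ± 0.454 (mean ± SD, n = 3) without Sora and 40.1% ± 0.719 with it. Smad4 had 28.4% ± 0.301 and 30.1% ± 0.677, and Smad3 23.9% ± 0.456 and 23.1% ± 0.269. The share of Smad2 went from 8.07% ± 0.112 to 6.62% ± 0.147 and that of Smad6 from 0.366% ± 0.0649 to 0.0952% ± 0.0209. The shares of Smad2, Smad3 and Smad6 were lower, and that of Smad4 higher, in all 3 Sora-Treg libraries than in any control, and that of Smad7 overlapped. The size of each share rests on the length assigned to each gene, which was longest for Smad2.

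**Figure D4:**
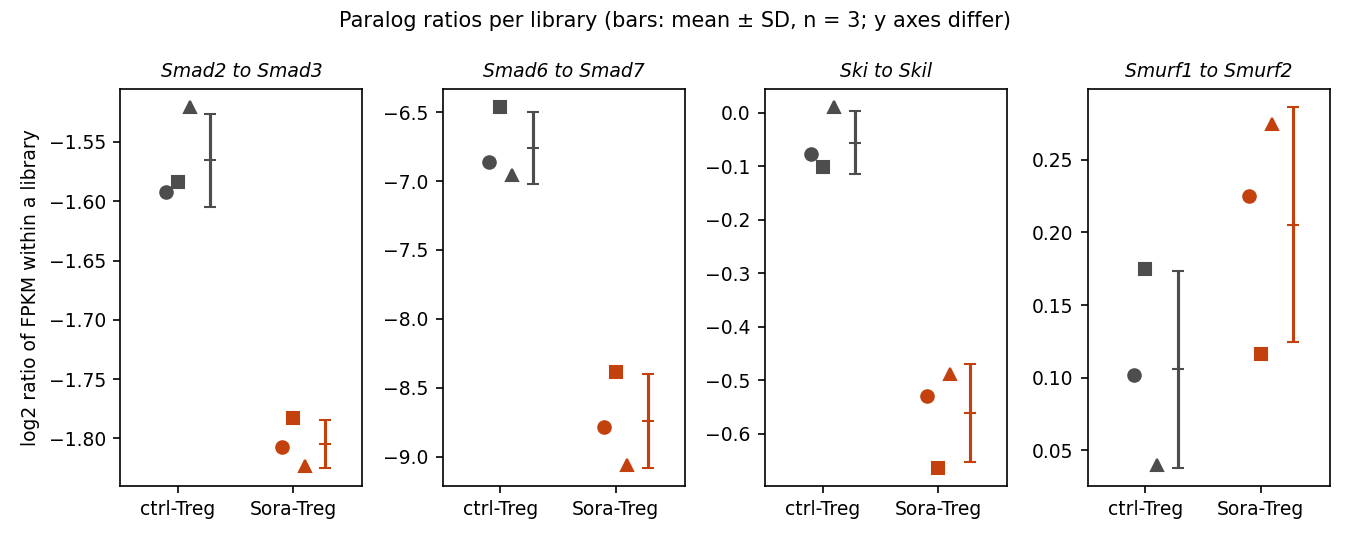
The log2 ratio of FPKM of 4 paralog pairs within each library (y axes differ between panels), with group mean ± SD beside the points (n = 3). Ski to Skil, Smad2 to Smad3 and Smad6 to Smad7 are lower in all 3 Sora-Treg libraries, and Smurf1 to Smurf2 overlaps.

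The other genes of the pathway were read from 6 hand-written lists, which together held 98 genes, 91 of them tested. Of these 37 were higher and 28 lower, and their median log2 fold change was -0.01, beside -0.00352 for all genes tested. The other SMADs carry BMP signals. Smad1 averaged 17.8 ± 0.581 CPM in controls and 12.0 ± 1.05 CPM under Sora (mean ± SD, n = 3), with a log2 difference of -0.56 ± 0.08 (SE, BH-adjusted p = 4.43e-06, edgeR).

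Smad5 had a log2 fold change of -0.07 ± 0.05 (SE, BH-adjusted p = 0.227, edgeR) and was called lower with libraries scaled by their totals (-0.19). Smad9 had 4 counts or fewer per library and was not tested. Of 19 tested ligands and receptors 11 were higher and 5 lower (median 0.34), and with libraries scaled by totals 10 were higher and 5 lower (median 0.23). Tgfb3, a ligand, and Lrrc32, which anchors latent TGF-β on Treg cells, had log2 fold changes of 5.84 ± 0.09 and 0.96 ± 0.03, the BMP receptor gene Bmpr1a had 1.09 ± 0.06, and the ligand Bmp7 had -1.90 ± 0.13 (SE).

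Enzymes of the ubiquitin system that act on SMADs were mostly called higher. Of 17 tested 10 were higher and 1 was lower (median 0.10), but with libraries scaled by their totals 7 were higher and 6 lower (median -0.01), so the direction of the list is not fixed. Nedd4, a HECT ligase of the same family as the Smurfs, rose by 0.75 ± 0.05, Fbxo30 by 0.60 ± 0.09, the deubiquitinase Usp11 by 0.52 ± 0.06 and the ligase Itch by 0.27 ± 0.04 (SE). These 4 passed under all 17 alternatives.

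Of 18 adaptors, import factors and phosphatases of SMADs 3 were higher and 10 lower (median -0.15), and with libraries scaled by totals 1 was higher and 12 lower (median -0.27). Fkbp1a, which binds the type I receptor, had a log2 fold change of 0.46 ± 0.03. Ldlrad4, a membrane inhibitor of SMAD signaling, Xpo4, an exporter of Smad3, and the importin Ipo7 had -0.33 ± 0.04, -0.32 ± 0.05 and -0.24 ± 0.04 (SE). All 4 kept direction and call in every alternative.

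Nuclear partners were mixed, with 8 of 19 higher and 4 lower, and with libraries scaled by their totals 5 higher and 9 lower. Runx3, which cooperates with SMADs in T cells, rose by 1.14 ± 0.03, the acetyltransferase gene Ep300 by 0.50 ± 0.03 and the corepressor gene Ncor1 by 0.20 ± 0.03, while the repressor gene Zeb1 changed by -0.35 ± 0.04 (SE). Ncor1 was at 0.0858 with libraries scaled by totals, and at 0.0828 with no call on unfiltered log2(FPKM + 1). Tgif2, the paralog of Tgif1, changed by -0.24 ± 0.06 (SE, BH-adjusted p = 9.90e-04, edgeR), a smaller fall than that of Tgif1, and the difference between them was not tested. Tgif2 was named after its values were seen.

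Genes that TGF-β can induce did not move together: 7 of 20 were higher and 9 lower (median -0.20). With libraries scaled by their totals 6 were higher and 11 lower (median -0.32). Id2 rose by 1.19 ± 0.04, Junb by 0.51 ± 0.03, and Id3 changed by -1.69 ± 0.11 (SE). The feedback inhibitor Pmepa1, like Ldlrad4 a target that restrains the pathway, changed by -0.28 ± 0.04 (SE, BH-adjusted p = 5.81e-06, edgeR) and was also named after its values were seen. Every gene of these lists given here with a fold change, other than Smad5, passed the edgeR test. Each list was described by its counts only, and the share of all genes called was 59.6%.

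**Figure D5:**
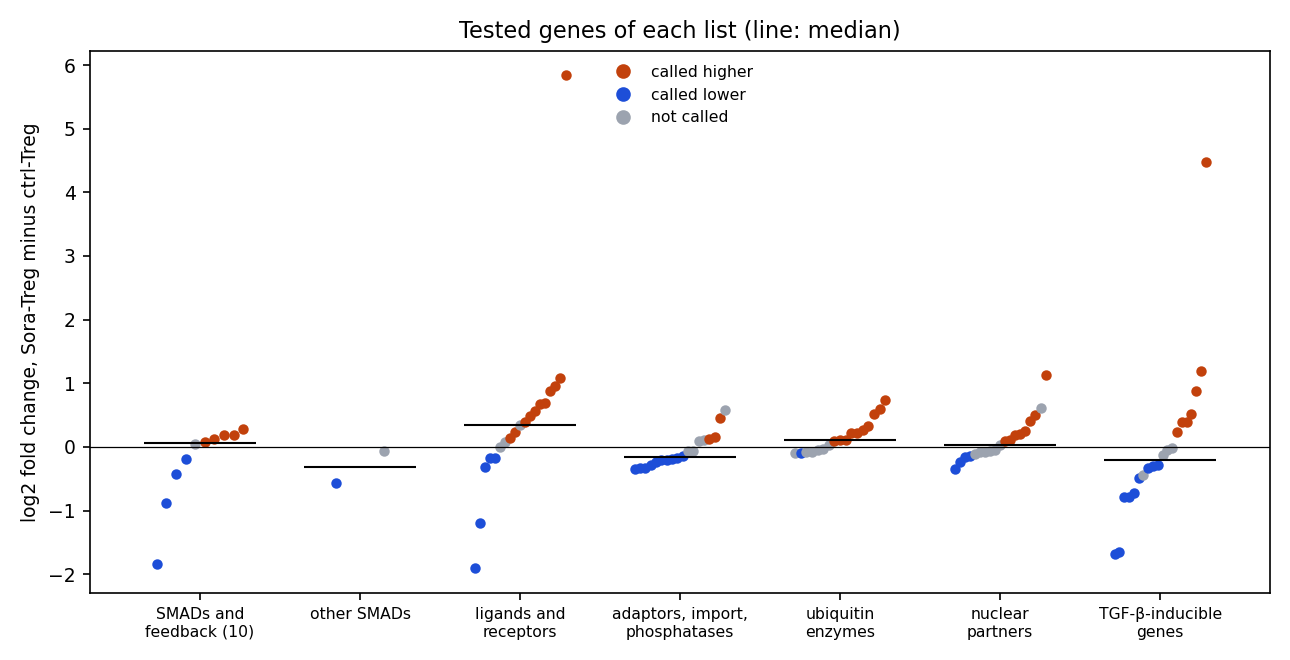
The log2 fold change (y axis) of every tested gene in the 10-gene set and in 6 lists of other pathway genes, ordered by value within a list and coloured by call, with a line at each median. Called genes lie on both sides of 0 in every list but the other SMADs, and Tgfb3 (5.84) stands highest.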

How the data were processed

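RNA of 6 Treg cell libraries was analysed, 3 control and 3 Sora, grouped by sample titles. The authors deposited raw counts and FPKM values per gene symbol. The study's methods name Bowtie2 and GRCm38, whereas the submitters' processing notes name fastp, HISAT2, HTSeq, R 3.2.0, DESeq2 and GRCm39. The strand setting and annotation release are not given in the sources used here, so overlapping genes cannot be separated, and sequences are RefSeq's on GRCm38.p6. FPKM equalled the count over library total and a single length per gene, so it is no separate measurement.

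Counts were tested in edgeR 4.0.16 (R 4.3.3) by quasi-likelihood, with TMM scaling, filterByExpr, 13463 of 22939 genes, Benjamini-Hochberg adjustment over all tested, two-sided. The SE is the one the F statistic implies. CPM used library totals and TMM factors, except the CPM of the count limit, which used totals alone. Genes with an adjusted p under 0.05 were called, and DEGs also changed over 2-fold. Paralog ratios of FPKM were compared by exact permutation. Within groups, chi-square per degree of freedom between libraries was 3.48 to 6.23, so none is a copy. Scripts were tested on simulated data.

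Alternatives were RLE, upper quartile and total scaling, other filters, DESeq2 1.42.0, the replicate block, each library left out, and limma 3.58.1 on log2(FPKM + 1) or log2(FPKM + 0.1), with a mean FPKM of at least 0.5 or no filter. Named were the 10 genes, the other SMADs, and the up to 4 called genes of lowest p per list. Some genes that this rule names are not reported here. Any further gene was chosen after its values were seen. The members and lists were chosen with earlier results of these data known.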

Additional observations from a re-analysis of the deposited data

How the results depend on the processing

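Under 17 alternatives, the calls and directions of Tgif1, Ski, Smad2 and Smurf1 held. Scaling by library totals, which FPKM shares, moved the other small changes. It gave 5 of the 10 genes called (1 higher), limma on log2(FPKM + 1) and on log2(FPKM + 0.1) gave 4 each (1 higher), and unfiltered log2(FPKM + 1) gave 5 (1 higher). Over all genes, the 3 FPKM settings called 7493, 7482 and 7550 of 11229, 11229 and 22939 tested, with 2456, 2453 and 2577 higher and 5037, 5029 and 4973 lower, against 3994 higher and 4028 lower.

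With libraries scaled by totals, on log2(FPKM + 1), on log2(FPKM + 0.1) and on unfiltered log2(FPKM + 1), in that order, Smad3 had -0.0642, -0.0587, -0.0624 and -0.0587, Skil -0.0314, -0.0315, -0.0324 and -0.0315, Smad4 0.0708, 0.0661, 0.0695 and 0.0661, Smad7 0.0128, 0.0124, 0.0128 and 0.0124, and Smurf2 0.0711, 0.0647, 0.0695 and 0.0647, none significant. Skil was also not significant with upper quartile scaling (0.0460), a count of at least 1 in any library (0.0695), DESeq2 (0.0864), or without control replicates 1 and 2 (0.10), and with 1 library left out lay between 0.0397 and 0.12. Smad6 without control replicates 1 and 2 had -1.59.

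The number of DEGs among the 10 was 0 where 3 libraries had to reach a CPM of 1 and on log2(FPKM + 1) and log2(FPKM + 0.1), where Smad6 was filtered out, 0 on unfiltered log2(FPKM + 1), where the pseudocount shrank Smad6 to -0.21, and 0 without control replicates 1 and 2. The Smad6 to Smad7 difference was -1.03 with 0.1 added to FPKM. Other causes were not tested.

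The reported fit did not pair same-numbered libraries, whose deviations had correlations of -0.0438, 0.0591 and 0.0299. Such low values cannot show whether these libraries shared a culture or an animal. With the replicate block 9 of the 10 genes were called, with Smad6 at -1.83 and Tgif1 at -0.88, and it changed no call among the 10. At 5 to 28 counts, depth limits the fold of Smad6.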

Other observations

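The BMP branch of the pathway, which uses Smad1 and Smad5 and which Smad6 inhibits, had members on both sides. Id1 and Id3, which BMP signals are known to induce, were lower in Sora-Treg cells. Id1 went from 9.80 ± 0.285 to 5.67 ± 0.515 CPM and Id3 from 15.7 ± 0.886 to 4.86 ± 0.706 CPM (SD, n = 3), with BH-adjusted p = 1.75e-06 and 5.04e-12, edgeR. The co-receptor gene Eng had a log2 fold change of -1.19 ± 0.12 (SE) and the receptor gene Bmpr2 -0.18 ± 0.05, a call that was lost under 1 of 17 alternatives. The decoy receptor gene Bambi had 0.88 ± 0.09 (SE, BH-adjusted p = 1.68e-08, edgeR). Id2, of the same family as Id1 and Id3, was higher by 1.19 ± 0.04 (SE). Id1, Eng, Bmpr2 and Bambi were named after their values were seen.

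The palindrome GTCTAGAC found at the start of Smad6 stood in a promoter window of 67 genes, of which 35 were tested. Of these 14 were higher and 7 lower in Sora-Treg cells, so 60% were called, close to the 59.6% of all genes, and the median log2 fold change was 0.08. Runx3 was among those higher, and Smad6 had the lowest value of the 35. This scan was added after the Smad6 window had been seen.

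Smad3 and Smad6 are neighbours on chromosome 9, 195082 bases apart in RefSeq on GRCm38.p6. Near them, Aagab had a log2 fold change of -0.10 ± 0.06 (SE, BH-adjusted p = 0.163, edgeR), Zwilch, a kinetochore gene, -0.96 ± 0.08 (SE, BH-adjusted p = 4.72e-10, edgeR) and Map2k1, which encodes the kinase MEK1, 0.27 ± 0.03 (SE, BH-adjusted p = 7.88e-08, edgeR), while Snapc5 had -0.44 ± 0.09 (lower) and Rpl4 -0.02 ± 0.02 (not called). Of these 5 tested neighbours 2 were lower, 1 was higher and 2 were not called. Among all genes tested 59.6% were called, 29.7% higher and 29.9% lower, so these calls set the region apart in no way. These neighbours were named after their values were seen.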
